A study of Mus musculus with 8 samples.

Results

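The genes described here encode the machinery that degrades mRNA: deadenylases, poly(A)-binding proteins and deadenylase recruiters, decapping factors, 5′ to 3′ exonucleases, factors of nonsense-mediated mRNA decay (NMD) and subunits of the RNA exosome. The 54 genes were chosen by symbol, and all 54 are among the 13558 transcripts of the processed mRNA-seq table of mouse embryonic stem (mES) cells. They were compared between 4 KO and 4 WT libraries. WT cells were homozygous for a conditional (Trim fl/fl) allele of Trim71 and KO cells were Trim-/-. Per the labels, the mutation had been induced in KO cells with 500 nM 4-hydroxytamoxifen (4-OHT) for 2 days, followed by at least 7 days of further culture. The methods give a lower concentration and a shorter culture for the conditional cells, and which of them holds for these libraries was not settled. Both genotypes derived from male C57BL/6 mES cells that also carry a tamoxifen-inducible Cre recombinase in the Rosa26 locus, grown with FCS and LIF and sorted for the surface antigen SSEA-1. Only clone E3 (KO replicates 1 to 3, WT replicates 2 and 3) and clone 1 (KO replicate 4, WT replicates 1 and 4) were used, so replicates are libraries of a pair of clones and p-values measure the spread between these libraries, which may be technical. The labels give a day to each library, namely 2, 3, 4 and 5 for KO replicates 1 to 4 and 1, 3, 4 and 5 for WT replicates 1 to 4. They do not say what the day counts, and its use below as a day shared by libraries is an assumption. The drug was given to KO cells, and the methods name DMSO as the vehicle of control cells, so drug and genotype cannot be told apart beyond the washout.

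Most cytoplasmic mRNAs are degraded after their poly(A) tail has been shortened, by the PAN2-PAN3 and CCR4-NOT complexes. The body of the mRNA is then either decapped by DCP2, with the help of DDX6, EDC proteins, PATL1 and the LSM1-7 ring, and digested from its 5′ end by XRN1, or digested from its 3′ end by the exosome. NMD uses UPF and SMG proteins to send mRNAs with a premature stop codon, and a set of normal transcripts, into the same pathways. Trim71 is an RNA-binding protein of stem cells that is known to lower the stability and translation of target mRNAs, in part with microRNA effector proteins, which makes the expression of the decay machinery a relevant background for the loss of the protein.

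Trim71 itself had 500, 793, 733 and 247 normalized counts across the KO libraries and 2782, 2736, 1988 and 2584 across the WT libraries (values of a group are always given in the order of replicates 1 to 4). The groups were far apart. The count covers the whole gene, of which the mutation removes only a part. Reads recovered from the table came to 6535829 to 24362027 per library. Of the 8 ES cell markers listed, including Pou5f1, Nanog and Sox2, all were present, with summed levels of 62818 to 90881 in KO and 56708 to 79009 in WT libraries. Markers of other cell types were at far lower sums. Fibroblast markers (4 of 8 in the table) summed to 96.6 to 178 in KO and 74.6 to 155 in WT libraries, and endoderm markers (5 of 6) to 198 to 493 and 15.8 to 291. Mesoderm markers (4 of 5) summed to 177 to 230 in KO and 120 to 199 in WT, and neural markers (5 of 6) to 800 to 1049 and 965 to 1618, with 1 marker of each of these lists at an unadjusted p under 0.05. The part of such cells in the results was not tested. KO replicate 3 stood apart. It was the lowest of the 8 libraries in 18 of the 54 decay genes and the highest in 14, and over all transcripts it was lowest in 26.5% and highest in 24.4%. The deviations of KO replicate 3 followed GC content, with a Spearman correlation of 0.68 across all transcripts with an annotated length and of 0.79 across the 54 genes, and results are therefore given with and without it.

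Few of the decay genes differed between the genotypes by the test. An unadjusted p under 0.05 was reached by 3 of the 54 genes (5.56%), against 9.09% of all transcripts. Cnot1, the scaffold of the CCR4-NOT complex, and Xrn1, the cytoplasmic 5′ to 3′ exonuclease, were lower in KO cells (background 4.46%), and Lsm7, a subunit of the LSM1-7 ring, was higher (background 4.62%). None of the 54 passed after adjustment over all transcripts, the smallest adjusted p among them being 0.49 (limma, Benjamini-Hochberg), and 0 of the 13558 transcripts did. KO and WT values did not overlap in 5 of the 54 genes (9.26%), against 10.1% of all transcripts: Cnot1, Cnot6l, Parn and Xrn1 lay lower in KO cells, where the share over all transcripts was 4.62%, and Lsm7 lay higher, where it was 5.48%. The lower share was thus 7.41% of the 54 genes and the higher share 1.85%. The median log2 fold change of KO over WT was -0.056 for the 54 genes and -0.0004 for all transcripts, and the median absolute log2 fold change was 0.12 and 0.18. The 95% interval of the fold change lay within 1.5-fold in both directions for 32 of the 54 genes (59.3%) and within 2-fold for 49 (90.7%), against 43.3% and 74.8% of all transcripts. Without KO replicate 3, 4 of the 54 genes reached an unadjusted p under 0.05 (background 10.7%), namely Cnot1, Xrn1 and Lsm7 again, and Lsm5. In clone E3 alone 1 did, Xrn1 (background 2.77%). Smaller groups overlap less often by their size: the groups were free of overlap in 10, 9 and 10 of the 54 genes without KO replicates 1, 2 and 3 (18.5%, 16.7% and 18.5%, against 17.5%, 13.8% and 16.6% of all transcripts) and in 8 in clone E3 alone (14.8%, against 17.9%).

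**Figure D1:**
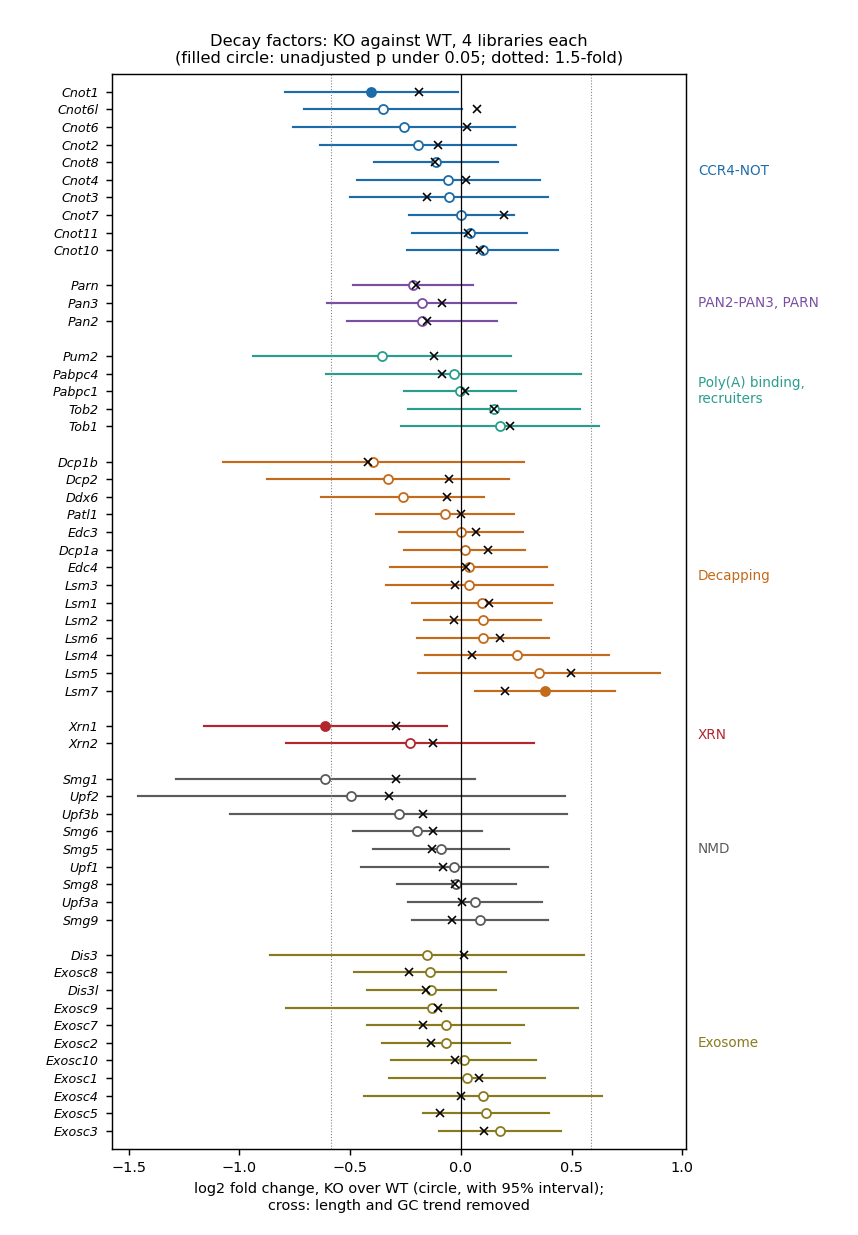
Log2 fold change of KO over WT for the 54 decay genes, ordered within each role (circles, with the 95% interval of the limma fit; filled where the unadjusted p is under 0.05), and the same after a trend on transcript length and GC content had been removed from each library (crosses). Only Cnot1, Lsm7 and Xrn1 have filled circles, and after removal of the trend no gene had a p under 0.05.

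The genes spanned a wide range of levels. Per kilobase of transcript, the most abundant was Pabpc1, the main cytoplasmic poly(A)-binding protein, with 4786 ± 253 normalized counts per kb in KO and 4801 ± 267 in WT cells (SD, n = 4 each). It was followed by Lsm3 and Lsm4, with 1849 ± 228 and 1805 ± 336 in KO cells. Over the 8 libraries both overlapped between the groups, and neither had an unadjusted p under 0.05. On days 3, 4 and 5 Lsm4 did, as given below. At the other end stood Xrn1 with 35.2 ± 9.8 per kb in KO and 52.8 ± 5.1 in WT, Cnot6l with 38.7 ± 6.5 and 48.8 ± 2.0, and Dcp1b with 13.8 ± 4.2 and 18.1 ± 4.4. The median of the 54 genes was 373 normalized counts per kb, against 118 over the 13461 transcripts with a length, and 48 of the 54 lay above that median.

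**Figure D2:**
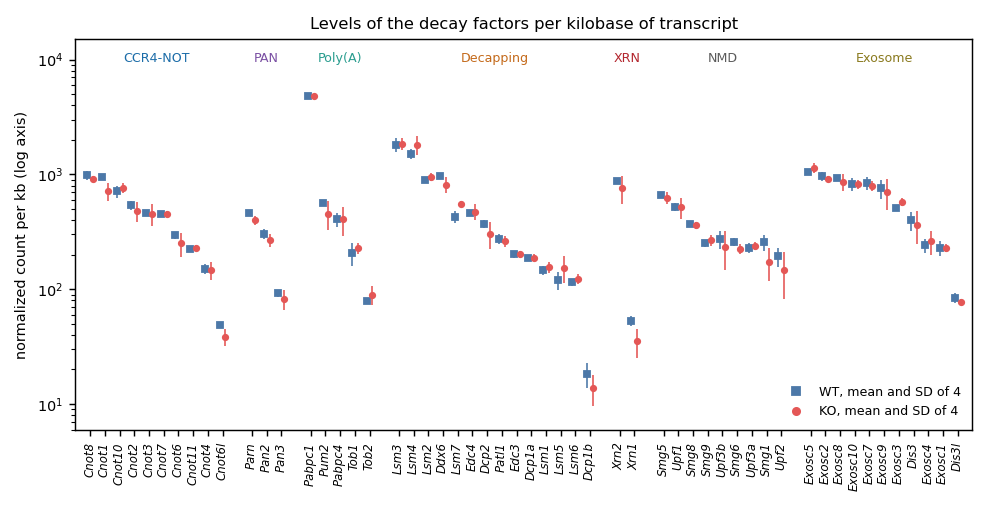
Normalized counts per kilobase of transcript (log axis) of the 54 genes, as mean and SD of 4 WT (squares) and 4 KO libraries (circles). Pabpc1 is the highest and Dcp1b the lowest, and the WT and KO bars overlap for most genes.

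Related genes were expressed at different levels. In levels per kb, the catalytic subunit Cnot7 stood at 0.42 to 0.53 times its paralog Cnot8 in the 8 libraries, and Cnot6 at 5.29 to 7.07 times Cnot6l. Dcp1a, an activator of DCP2, stood at 8.25 to 19.7 times its paralog Dcp1b, and the nuclear exonuclease Xrn2 at 14.8 to 29.6 times the cytoplasmic Xrn1. The ratio of Xrn2 to Xrn1 was 19.1 to 29.6 in KO and 14.8 to 18.7 in WT libraries, without overlap. The gap was narrow, from 18.7 in WT replicate 4 to 19.1 in KO replicate 4. All other pairs examined overlapped between the groups, and no share over all transcripts exists for such ratios. Xrn1 by itself was free of overlap, so its ratio is not a separate result. The transcripts of Xrn1 (10256 bases) and Xrn2 (3434 bases) differ in length. No trend on length and GC content was removed from these ratios. Upf3a and Upf3b were at a ratio of 0.79 to 0.96 in KO replicates 1, 2 and 4 and 0.75 to 0.97 in WT, but at 1.91 in KO replicate 3. Dis3 stood at 2.83 times Dis3l in KO replicate 3 and at 4.14 to 5.70 times in the 7 other libraries. Reads of genes with near-identical processed copies, as Pabpc1 has, could have been split by the counting, and these levels carry that uncertainty.

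Of the CCR4-NOT complex, 7 of 10 genes had a fold change below 0 and 1 had an unadjusted p under 0.05. The median log2 fold change was -0.085. Over all 13558 transcripts, 6784 had a fold change below 0 and 6774 above 0, and 9.09% had an unadjusted p under 0.05. These are the background of the counts by role or list here and below. Of the 54 genes, 32 were below 0 and 22 above. Whether a role leaned to 1 side was not tested. Cnot1 (chr8:95719451-95807464, minus strand, mm10), on which the other subunits assemble, had 5789, 7227, 4586 and 6397 normalized counts in the KO and 8035, 8241, 7893 and 7303 in the WT libraries. The highest KO value was below the lowest WT value, and KO replicate 3 was the lowest. The log2 fold change was -0.40 ± 0.17 (SE, adjusted p = 0.54, exact permutation p = 0.029, the smallest that 4 against 4 libraries can give). Every gene without overlap has this permutation p, so here and below it only restates the lack of overlap. Without KO replicate 3 the log2 fold change of Cnot1 was -0.29, with an unadjusted p under 0.05. With 1 library left out, the call was kept without KO replicate 2 (-0.49) and without KO replicate 3. It was lost in the other 6 of the 8 comparisons, where the log2 fold change was -0.48 to -0.36. With the day as a block the log2 fold change was -0.39 and with the length and GC trend removed -0.19, and in both the p was above 0.05. Cnot6l (chr5:96070333-96164171, minus strand), a deadenylase subunit of the CCR4 type, had 400, 345, 267 and 314 counts in KO and 444, 408, 411 and 410 in WT libraries. The groups did not overlap, though KO replicate 1 came within a few counts of the lowest WT library. For Cnot6l the log2 fold change was -0.35 ± 0.15 (SE, adjusted p = 0.56, exact permutation p = 0.029). It was -0.42 with the day as a block, where the unadjusted p was under 0.05. With the length and GC trend removed it was 0.07. The remaining 8 genes, among them the deadenylases Cnot6, Cnot7 and Cnot8, overlapped between the groups and had log2 fold changes of -0.26 to 0.10. For Cnot7, at 1146 to 1285 counts in KO and 1177 to 1224 in WT libraries, the 95% interval ran from -0.24 to 0.24.

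The levels per kb of the 10 CCR4-NOT genes summed to 4570, 4690, 4029 and 4466 in KO and 4884, 4941, 4713 and 4714 in WT libraries, so that every KO sum lay below every WT sum. The KO mean was 0.92 times the WT mean. KO sums also lay below all WT sums for the 3 genes of PAN2-PAN3 and PARN. These were 769, 733, 801 and 700 in KO and 908, 816, 849 and 858 in WT libraries. Each of the 2 sums holds a gene that was free of overlap alone. Cnot1 was at 692, 864, 548 and 765 per kb in KO and 961, 985, 944 and 873 in WT libraries. Parn was at 427, 392, 419 and 356 in KO and 481, 439, 442 and 484 in WT libraries. A drop across either complex was not tested, and no share over all transcripts exists for such sums. In the other 5 roles the summed levels overlapped. KO over WT ratios of the summed means ran from 0.86 for the XRN pair to 1.05 for the decapping factors. Sums give abundant genes more weight. With each gene weighted alike, the mean log2 difference was -0.43 for the XRN pair, -0.18 for NMD and 0.02 for decapping. With the log2 of each library's sum averaged within groups, the differences of KO and WT were -0.26, -0.11 and 0.07.

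PAN2 is the nuclease and PAN3 the adaptor of a complex that starts deadenylation, and PARN is a separate poly(A)-specific ribonuclease. All 3 genes had fold changes below 0, and none had an unadjusted p under 0.05. Parn (chr16:13537960-13668170, minus strand) had 1239, 1139, 1218 and 1035 counts in KO and 1398, 1277, 1284 and 1408 in WT libraries. The groups did not overlap, and the gap between KO replicate 1 and WT replicate 2 was small. For Parn the log2 fold change was -0.22 ± 0.12 (SE, adjusted p = 0.61, exact permutation p = 0.029), and it was -0.24 without KO replicate 3 and -0.20 with the length and GC trend removed. In clone E3 alone and without KO replicate 4 it was -0.10. KO replicate 4 is the only KO library of clone 1. With the clone term, the fold change without it is therefore that of clone E3 alone, for every gene. Pan3 had 485, 455, 299 and 428 counts in KO and 453, 511, 433 and 468 in WT libraries, with a log2 fold change of -0.18 ± 0.18 (SE). Only KO replicate 3 lay clearly below the others, and without it the value was -0.04.

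Among the poly(A)-binding proteins and recruiters, none of the 5 genes had an unadjusted p under 0.05 and none was free of overlap. Pum2, a Pumilio protein that binds 3′ untranslated regions of mRNAs and recruits deadenylases, had 3162, 3552, 1698 and 3054 counts in KO and 3486, 3899, 3415 and 3452 in WT libraries. KO replicate 3 was far below all others and KO replicate 2 lay inside the WT range. The difference of Pum2 on the log2 scale was -0.35 ± 0.25 (SE, exact permutation p = 0.11), and it was -0.15 without KO replicate 3. Tob1, an adaptor between poly(A)-binding protein and CCR4-NOT, had 494, 461, 577 and 552 counts in KO and 469, 360, 611 and 439 in WT libraries, and both ends of the range were WT. Its log2 fold change was 0.18 ± 0.19 (SE). For Pabpc1 the log2 fold change was -0.004 with a 95% interval of -0.26 to 0.25, so that a change of 1.5-fold lay outside the interval in either direction.

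Of the 14 decapping factors, 10 had fold changes above 0, and 1, Lsm7, had an unadjusted p under 0.05 (7.14%, against 9.09% of all transcripts). The median log2 fold change was 0.04. Lsm7 (chr10:80852821-80855209, minus strand) had 281, 268, 246 and 247 counts in KO and 229, 174, 214 and 186 in WT libraries. The lowest KO library lay above the highest WT library. The log2 fold change was 0.38 ± 0.13 (SE, adjusted p = 0.49, exact permutation p = 0.029), and it was 0.40 without KO replicate 3 and 0.41 with the day as a block, both with an unadjusted p under 0.05. The call was lost in 4 of the 8 comparisons with 1 library left out (KO replicate 1 or 2, WT replicate 2 or 4). With the length and GC trend removed the value was 0.20, with a p above 0.05. The other members of the ring, Lsm1 to Lsm6, overlapped between the groups, and all 6 had fold changes above 0, from 0.04 for Lsm3 to 0.35 for Lsm5 on the log2 scale. With the trend removed Lsm2 and Lsm3 were at -0.03. Lsm4 was at 0.25, and at 0.42 with the day as a block, where its unadjusted p was under 0.05. Dcp1b had 28.4, 41.0, 59.1 and 54.4 counts in KO and 65.8, 50.8, 78.1 and 45.7 in WT libraries. Its mean count was the lowest of the 54 genes, resting on 31 to 185 reads per library, and the groups overlapped. Its log2 fold change was -0.39 ± 0.29 (SE, exact permutation p = 0.23). It was -0.15 on days 3, 4 and 5 and -0.17 to -0.61 with 1 library left out, nearest to 0 without WT replicate 3 or KO replicate 1 (-0.21) and farthest without KO replicate 4. Dcp2, the decapping enzyme, and the helicase Ddx6 had log2 fold changes of -0.33 ± 0.23 and -0.26 ± 0.16 (SE), with the lowest value of both in KO replicate 3 (1627 and 3797 counts). Without that library they were -0.14 and -0.16.

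The XRN pair held the gene with the largest fold change of those with an unadjusted p under 0.05. Xrn1 (chr9:95954760-96057803, plus strand) had 321, 460, 238 and 423 counts in KO and 558, 574, 572 and 464 in WT libraries. The groups did not overlap, but KO replicate 2 and WT replicate 4 were nearly equal. The log2 fold change was -0.61 ± 0.23 (SE, adjusted p = 0.52, exact permutation p = 0.029), or 1.53-fold lower. Xrn1 was the only one of the 54 genes with both a fold change of at least 1.5 and an unadjusted p under 0.05, a combination met by 4.25% of all transcripts. In clone E3 alone it was -0.80 and without KO replicate 3 it was -0.45, both with an unadjusted p under 0.05. The call was lost without KO replicate 1 and without WT replicate 1, 2 or 3. With the day as a block it was -0.57 and with the length and GC trend removed -0.29, and in both the p was above 0.05. Xrn2, the nuclear enzyme, which acts in transcription termination, had 3181, 2987, 1586 and 2700 counts in KO and 2975, 3222, 2828 and 2902 in WT libraries. Apart from KO replicate 3 the libraries overlapped, and the log2 fold change of -0.23 ± 0.24 (SE) became -0.03 without it.

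**Figure D3:**
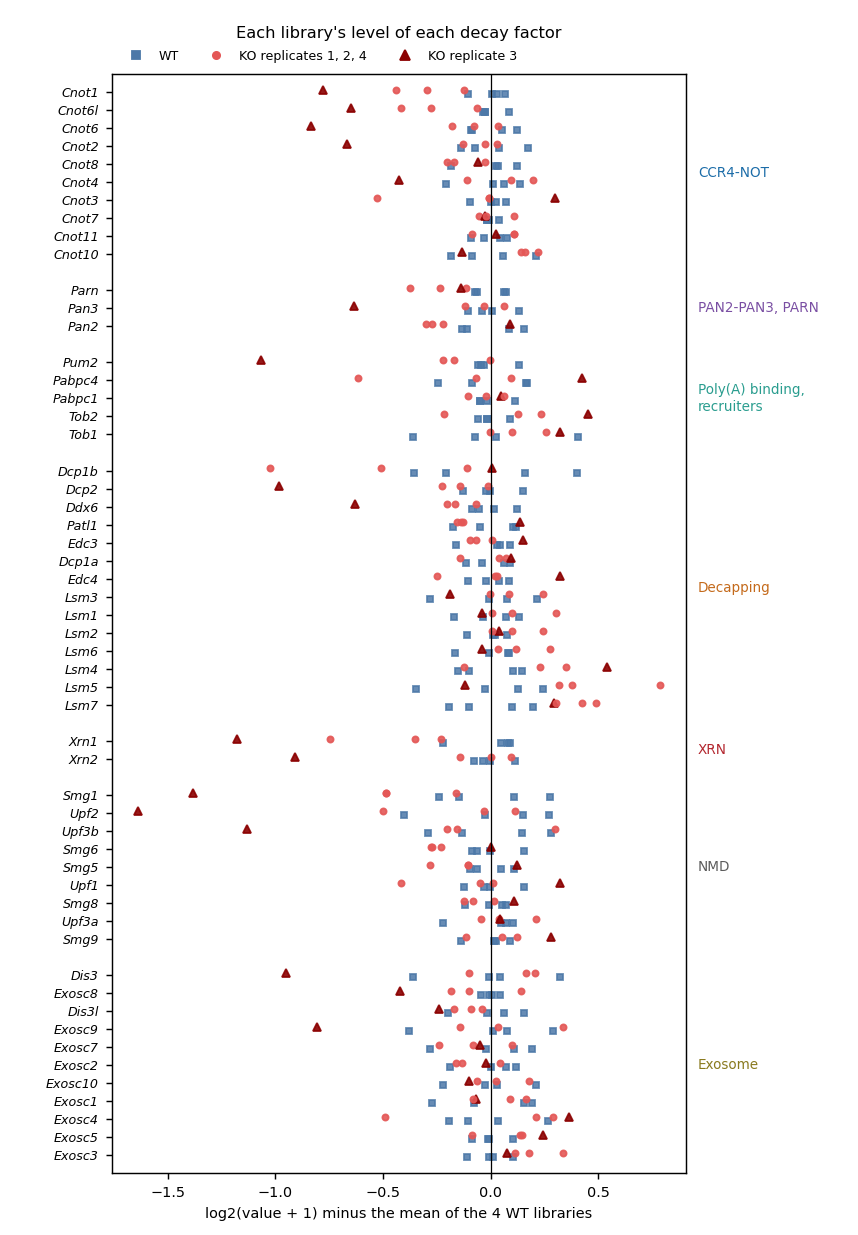
Log2(value + 1) of each library minus the mean of the 4 WT libraries, for the 54 genes by role. Squares are WT, circles KO replicates 1, 2 and 4, and triangles KO replicate 3, which lies more than 0.5 below the WT mean in 15 genes.

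None of the 9 NMD factors had an unadjusted p under 0.05, none was free of overlap and 7 had fold changes below 0. Smg1, the kinase that phosphorylates UPF1, had 2832, 3547, 1519 and 2829 counts in KO and 4274, 4796, 3358 and 3586 in WT libraries. KO replicate 2 exceeded WT replicate 3 and all other KO libraries lay below the WT range. For Smg1 the log2 fold change was -0.61 ± 0.29 (SE, adjusted p = 0.58, exact permutation p = 0.057), -0.39 without KO replicate 3 and -0.29 with the length and GC trend removed. With the day as a block it was -0.64 and the unadjusted p was under 0.05. Upf2, which bridges UPF1 and UPF3 proteins, had 1068, 965, 316 and 697 counts in KO and 971, 1193, 747 and 1098 in WT libraries. KO replicates 1 and 2 lay inside the WT range, KO replicate 4 lay below it, and KO replicate 3 was far below all others. The difference of Upf2 on the log2 scale was -0.50 ± 0.41 (SE, exact permutation p = 0.23), and -0.16 without KO replicate 3. It was -0.73 with the day as a block, where the unadjusted p was under 0.05. The helicase Upf1, at the centre of the pathway, had a log2 fold change of -0.03, with a 95% interval of -0.45 to 0.39. Smg5, Smg6, Smg8, Smg9 and Upf3a were between -0.20 and 0.09, and Upf3b was at -0.28, or -0.03 without KO replicate 3.

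Transcripts known as targets of NMD showed no common direction. Of 11 such transcripts, among them Gas5, Snhg1, Atf4 and Ddit3, 7 had fold changes above 0 and 4 below, with a median log2 fold change of 0.01. The only one with an unadjusted p under 0.05 was Gadd45b, a stress-induced gene, with 322, 361, 357 and 428 counts in KO and 230, 310, 302 and 260 in WT libraries. The groups did not overlap, and the log2 fold change was 0.40 ± 0.15 (SE, adjusted p = 0.52, exact permutation p = 0.029). It was 0.39 with the day as a block, 0.18 in clone E3 alone and 0.24 with the length and GC trend removed, each with an unadjusted p above 0.05.

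Differences were small for the exosome genes. None of the 11 had an unadjusted p under 0.05 or was free of overlap, and log2 fold changes ran from -0.15 to 0.18. Exosc3, a subunit of the cap of the exosome, had 594, 694, 580 and 623 counts in KO and 555, 592, 510 and 547 in WT libraries. One WT library exceeded the lowest KO library, and the log2 fold change was 0.18 ± 0.12 (SE, exact permutation p = 0.057). Dis3, the exosome-associated nuclease, had 2327, 2265, 1042 and 1881 counts in KO and 2082, 2522, 1571 and 2006 in WT libraries. The lowest was again KO replicate 3, followed by WT replicate 3 of the same day, and the log2 fold change of -0.15 ± 0.30 (SE) was 0.08 without KO replicate 3. The 95% interval lay within 1.5-fold in both directions for 8 of the 11 exosome genes and within 2-fold for all 11.

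Fold changes of the decay genes followed transcript length and, with KO replicate 3 included, GC content. Of the 14 genes with transcripts of at least 5000 bases, 12 had a fold change below 0, with a median log2 fold change of -0.30. Of the 18 with transcripts under 2500 bases, 6 had one below 0, with a median of 0.08. The transcripts of Smg1 (15557 bases), Xrn1 (10256), Cnot6l (8564) and Cnot1 (8364) are among the longest of the 54, and that of Lsm7 (468) is the shortest. The Spearman correlation of fold change with length was -0.66 across the 54 genes and -0.31 across 13461 transcripts, which share the same 8 libraries and are not independent. With GC content the correlation was 0.46 across the 54 genes and 0.37 across the 13461 transcripts. With the day as a block it was 0.65 and 0.54 for GC content, and -0.54 and -0.24 for length. Over all transcripts the medians were -0.16 for at least 5000 bases and 0.09 for under 2500 bases. Without KO replicate 3, whose deviations followed GC content, the correlation with length across the 54 genes was -0.65. The medians were then -0.15 for the long and 0.07 for the short transcripts. The correlation with GC content was 0.08 across the 54 genes and 0.10 across the 13461 transcripts without that library. With the trend on length and GC content removed from each library, none of the 54 genes had an unadjusted p under 0.05 (background 9.82%), and the medians were -0.07 and -0.03. With the trend removed and the day as a block, 5 of the 54 did (9.26%, background 16.0%): Tob1 (0.32) and Lsm5 (0.56) were higher in KO cells, and Upf2 (-0.51), Smg1 (-0.35) and Dis3l (-0.22) lower. Whether length or base composition, rather than the genotype, set these fold changes was not tested.

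**Figure D4:**
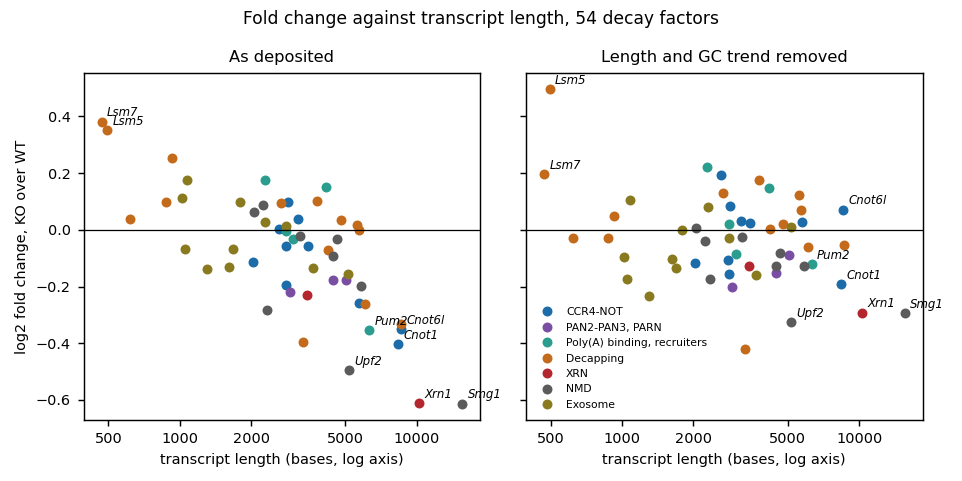
Log2 fold change of KO over WT against transcript length (log axis) for the 54 genes, coloured by role, as deposited (left) and after removal of a trend on length and GC content in each library (right). On the left the long transcripts of Smg1, Xrn1, Cnot1 and Cnot6l lie at -0.61 to -0.35 and the short ones of Lsm7 and Lsm5 at 0.38 and 0.35; on the right the spread is narrower.

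Many of the low values were those of KO replicate 3. It lay more than 0.5 on the log2 scale below the WT mean in 15 of the 54 genes, against 4, 1 and 1 genes for KO replicates 1, 2 and 4. The 15 genes were Cnot1, Cnot2, Cnot6, Cnot6l, Pan3, Pum2, Dcp2, Ddx6, Xrn1, Xrn2, Upf2, Upf3b, Smg1, Exosc9 and Dis3, and the GC content of their transcripts was 37.6% to 48.2%, while the median of the 54 was 48.4%. Where KO replicate 3 was the highest library, the median GC content was 55.2%. KO replicate 1 had the opposite tendency, with a correlation with GC content of -0.53 across the 54 genes. WT replicates 2 and 4 shared it, at -0.52 and -0.49. KO replicate 1 was more than 0.5 below the WT mean in Cnot3, Pabpc4, Dcp1b and Xrn1.

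Days 3, 4 and 5 each had a library of both genotypes. In these 6 libraries without a block, 3 of the 54 genes had an unadjusted p under 0.05 (background 6.69%), namely Cnot6l, Lsm4 and Lsm7. With the day as a block over the same libraries, 5 of the 54 genes had an unadjusted p under 0.05 (9.26%), against 19.2% of all transcripts. Lsm4 and Lsm7 were higher in KO cells, where the background was 9.92%, and Cnot6l, Upf2 and Smg1 lower, where it was 9.26%. The block thus added Upf2 and Smg1, while the calls of Cnot1 and Xrn1 were lost, and those of Cnot6l and Lsm4 gained, already on restriction to 6 libraries. Only Lsm7 was also among the 3 genes of the comparison over 8 libraries, and no transcript passed adjustment. By voom on the recovered reads with the same block, 12 of 53 genes (22.6%) had an unadjusted p under 0.05, against 23.8% of all transcripts, 4 higher and 8 lower in KO cells. The effect of genotype differed between the clones, at an unadjusted p under 0.05, in none of the 54 genes (limma), against 2.59% of all transcripts. This comparison has a single KO library in clone 1.

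Beyond these 54, a wider set of decay genes was listed by role. Of 67 such genes in the table, 7 had an unadjusted p under 0.05 (10.4%, against 9.09% of all transcripts), 4 of them among the 20 deadenylation genes, 1 among the 13 decapping genes, 0 among the 12 NMD genes, 2 among the 15 exosome and ribosome rescue genes and 0 among the 7 Argonaute and Tnrc6 genes. Whether the lists differ from one another was not tested. The KO and WT values did not overlap in 12 of the 67 (17.9%, against 10.1% of all transcripts). Of these, 8 were lower in KO cells (4.62% of all transcripts were) and 4 higher (5.48% of all transcripts were). Those also at an unadjusted p under 0.05 were Nanos1, Nanos3 and Lsm14b, lower, and Zfp36l1, Exosc6 and Pelo, higher. The lists were compiled by role, with earlier results of these data known. None passed adjustment over all transcripts.

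Nanos3 and Nanos1 encode RNA-binding proteins that bring CCR4-NOT to target mRNAs, the former in germ cells. Nanos3 had 2.44, 8.39, 9.74 and 4.84 normalized counts in KO and 18.0, 14.6, 16.9 and 16.5 in WT libraries. The groups did not overlap, on 2 to 37 reads per library, and the log2 fold change was -1.39 ± 0.37 (SE, adjusted p = 0.45, exact permutation p = 0.029). Nanos1 had 85.9, 83.2, 81.4 and 88.5 counts in KO and 111, 104, 118 and 104 in WT libraries. All KO libraries lay below all WT libraries, with little spread within groups, and the log2 fold change was -0.36 ± 0.11 (SE, adjusted p = 0.45, exact permutation p = 0.029). For both, the unadjusted p was under 0.05 also with the day as a block (log2 fold changes -1.02 and -0.36) and with the length and GC trend removed (-1.58 and -0.33). In clone E3 alone they were -1.25 and -0.41, with a p above 0.05.

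Zfp36l1, which binds AU-rich elements and recruits deadenylases, was higher in KO cells, with 1334, 1614, 1293 and 1578 counts against 875, 1291, 843 and 1012 in WT. The highest WT library nearly reached the lowest KO library, and the log2 fold change was 0.54 ± 0.18 (SE, adjusted p = 0.47, exact permutation p = 0.029). Btg2, an antiproliferative protein that stimulates deadenylation through CNOT7 and CNOT8, had 1598, 1311, 2446 and 2235 counts in KO and 658, 941, 1574 and 1181 in WT libraries. The groups overlapped between KO replicate 2 and WT replicate 3, and the log2 fold change was 0.80 ± 0.33 (SE, adjusted p = 0.54, exact permutation p = 0.057). Without KO replicate 3 the value of Btg2 was 0.69, with an unadjusted p above 0.05, and that of Zfp36l1 was 0.59, with one below it. In clone E3 alone they were 0.50 and 0.43, both with a p above 0.05.

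Outside the recruiters, Pelo, which rescues stalled ribosomes, had 554, 541, 589 and 597 counts in KO and 422, 395, 499 and 418 in WT libraries. All KO libraries were above all WT libraries, and the log2 fold change was 0.40 ± 0.12 (SE, adjusted p = 0.46, exact permutation p = 0.029). With the length and GC trend removed it was 0.24, with an unadjusted p just under 0.05, and 0.20 with the block as well, with a p above 0.05. In clone E3 alone it was 0.34, also with a p above 0.05. Exosc6, a ring subunit of the exosome, had 321, 389, 408 and 364 counts in KO and 283, 254, 319 and 304 in WT libraries. The gap between the groups was 2 counts wide, the log2 fold change was 0.35 ± 0.14 (SE, adjusted p = 0.52, exact permutation p = 0.029), and with the length and GC trend removed it was 0.12, with a p above 0.05. Lsm14b, an LSM-domain protein of cytoplasmic mRNA granules, had 1241, 1174, 1310 and 1109 counts in KO and 1707, 1409, 1480 and 1382 in WT libraries. The groups did not overlap and the log2 fold change was -0.31 ± 0.12 (SE, adjusted p = 0.53, exact permutation p = 0.029). With the day as a block it was -0.25 and in clone E3 alone -0.22, both with a p above 0.05. With 1 library left out, the call was lost in 7 of the 8 comparisons for Lsm14b, 6 for Btg2 and for Exosc6, 4 for Gadd45b, 2 for Zfp36l1 and for Pelo, and 0 for Nanos1 and Nanos3.

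**Figure D5:**
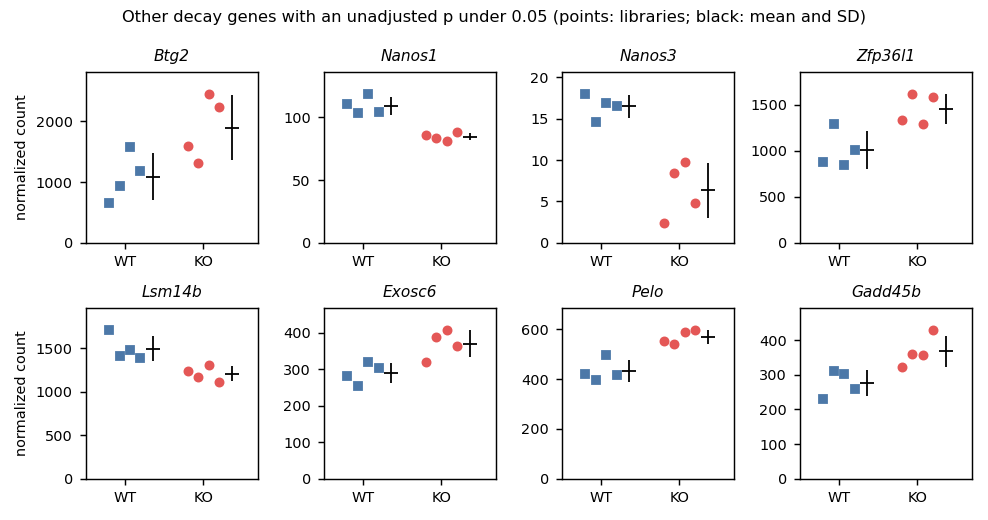
Normalized counts (axis from 0) of the 8 further decay genes and NMD targets with an unadjusted p under 0.05, in each WT (squares) and KO library (circles), with mean and SD in black. Nanos1, Nanos3 and Lsm14b are lower in every KO library, Zfp36l1, Exosc6, Pelo and Gadd45b are higher in every KO library, and the groups overlap for Btg2.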

How the data were processed

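mRNA of 8 libraries was sequenced as paired-end reads after poly(A) selection (TruSeq, unstranded kit). Per the methods, the authors aligned reads to mm10 with TopHat2 and Bowtie2 (2.2.1), counted reads per RefSeq transcript, normalized with DESeq2, corrected for batch in Partek (6.6), set values under 1 to 1 and removed transcripts whose highest group mean was under 10. What was deposited is thus a normalized signal with decimals, here called normalized counts. Clone had been subtracted: its effect was 0 within printed precision for each of the 13350 transcripts that never reached the floor of 1.

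Values were tested as log2(value + 1) with limma 3.58.1 (R 4.3.3), with genotype and clone as terms and Benjamini-Hochberg adjustment over 13558 transcripts. Fold changes on this scale understate those of low transcripts. Single genes were also compared by exact two-sided permutation tests over 70 assignments, whose smallest p is 0.029. Any gene whose groups do not overlap takes this smallest p, which adds nothing to the lack of overlap. Whole reads were recovered for 13260 transcripts (99.3% of those without a floor value), which gives the depth and served in one alternative (voom). Intervals of fold changes come from the spread between libraries. Lengths, GC content and positions come from GENCODE M21 (GRCm38), matched for 54 of 54 genes; the longest transcript with a RefSeq link was taken. The fit was tested on simulated data. Python 3.11.15, scipy 1.17.1 and matplotlib 3.10.9 were used.

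The members and lists were chosen with earlier results of these data known. Genes given library by library are those with an unadjusted p under 0.05, those without overlap and the 2 genes of each role with the largest absolute log2 fold change. From the other lists, those with an unadjusted p under 0.05 are named. Days 3, 4 and 5 each have 1 library of both genotypes, by the labels. With the clone correction undone, deviations of same-day libraries from the group means had correlations of 0.56, 0.65 and 0.50, while the 13 other pairs had a median of -0.19. As deposited the same-day values were 0.42, 0.54 and -0.23. These pairs also share a clone.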

Additional observations from a re-analysis of the deposited data

Results flagged for a closer look

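In groups of 4 libraries, 1 value stood far from the other 3 in 6 of 126 groups checked, where chance gives about 1 in 20. WT replicate 1 was the highest WT library for Cnot6l, at 444 normalized counts against 408 to 411, and for Cnot7, at 1224 against 1177 to 1184. WT replicate 2 was the highest for Pum2, at 3899 against 3415 to 3486. WT replicate 4 was the lowest for Xrn1, at 464 against 558 to 574, and is the WT library closest to the KO range of that gene. KO replicate 3 was the highest KO library for Patl1, at 1273 against 1038 to 1057, and for Smg6, at 1504 against 1241 to 1281.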

How the results depend on the processing

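The number of decay genes with an unadjusted p under 0.05, 3 in the comparison reported, was 5 without a clone term, on untransformed values, with a trended and robust prior, with the replicate block by day and with that block and the length and GC trend removed (9.26%, against 16.0% of all transcripts). It was 1 in clone E3 alone, 0 with the trend removed and 12 of 53 (22.6%) by voom on recovered reads with the block, against 23.8% of all transcripts. Leaving out 1 library gave 0 to 4, and 0 without WT replicate 2. Over all transcripts the number, 1232 as reported, was 1898 with no clone term, 2601 with the block, 2152 with block and trend removal, 376 in clone E3 and 3157 by voom with the block, and 442 to 1444 with 1 library left out, the lowest without KO replicate 4. The number with an adjusted p under 0.05 was 0 throughout, left-out libraries included (0 to 0), except 2 by voom with the block. Of the other decay genes, 7 as reported, the number was 11 with the block and with no clone term, 4 on days 3 to 5 without the block, 0 in clone E3, 22 by voom with the block and 3 to 7 with 1 library left out. Of the NMD targets, 1 as reported, it was 0 with the trend removed, on days 3 to 5 without the block and in clone E3, 2 with block and trend removal, 3 by voom with the block and 0 to 1 with 1 library left out. Genes without overlap, 5 as reported, numbered 8 in clone E3 (17.9% of all transcripts) and 5 to 10 with 1 library left out; without KO replicates 1 and 3 there were 10 each (17.5% and 16.6% of all transcripts), and without KO replicate 2 there were 9 (13.8%). Trim71 kept its direction in every setting. With the trend removed 12 of the 54 genes turned sign, all to within 0.10 of 0. Of the genes given library by library, signs turned for Cnot6l with the trend removed (0.071, and 0.11 with the block) and for Dis3 with the trend removed (0.012). With 1 library left out, Dis3 ran from -0.33 to 0.075, above 0 without KO replicate 3 and without WT replicate 2, and Tob1 from -0.0073, without WT replicate 2, to 0.40. The causes were not tested. Against the same 6 libraries without it, the block itself changed the calls of Upf2 and Smg1 among the decay genes. The restriction to 6 libraries changed those of Cnot1, Xrn1, Cnot6l and Lsm4. Without KO replicate 4 no genotype-by-clone effect could be fitted. With 6535829 reads in the shallowest library, Lsm5 and Dcp1b rested on as few as 28 and 31 reads.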
